A study of Mus musculus with 10 samples.

Results

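The genes of terminal differentiation and the cornified envelope are 48 mouse genes, chosen by name with earlier results of these data known. The upper layers of the epidermis use them to build the dead, crosslinked cells of the skin surface. Of the 48 genes, 46 were found by their Ensembl identifier among the 37991 identifiers of the expression table, through the GRCm38 annotation. Flg and Lce1d were not analysed here. Levels are FPKM, fragments scaled to the length of the transcript and the size of the library, so they can be compared between genes per length. In these cultures 15 of the genes averaged 10 FPKM or more, 14 lay between 1 and 10, and 17 lay under 1. The clearest change with the cytokine IL-17A was in the Lce3 cluster, where Lce3b rose over the 5 cultures. Its rise was 1.76-fold in FPKM + 1, a scale that understates changes of low genes. The call was lost when any 1 library was left out.

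Keratinocytes leaving the basal layer switch to the keratins Krt1 and Krt10, then lay down a scaffold of involucrin and plakins under the cell membrane, and finally load it with loricrin, small proline-rich proteins and late cornified envelope (LCE) proteins. Transglutaminases join these proteins covalently, lipoxygenases and the transporter Abca12 supply the lipid cover, and proteases such as Asprv1 and Casp14 process filaggrin. In cultured mouse keratinocytes a rise in extracellular calcium starts this programme, and low-calcium medium keeps most cells in a basal, dividing state. Many of the genes lie side by side in the epidermal differentiation complex, and 26 of the 48 mapped to chromosome 3.

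The cells were primary skin keratinocytes of mice aged 4 to 5 days after birth. The mice were Bcl10-/- (knockout) or Bcl10+/- (heterozygous littermates), both carrying the Bcl10tm1Mak allele, so no culture had 2 normal copies. Which part of Bcl10 this allele lacks was not stated in the labels. BCL10 is an adaptor that links CARD proteins to MALT1 in NF-kB signalling. Every culture grew on collagen in serum-free medium with 0.05 mM calcium chloride, and received mouse IL-17A at 200 ng/mL for 5 h or no stimulation. There were 2 unstimulated and 2 IL-17A libraries labelled knockout, and 3 and 3 labelled heterozygous. A culture here is the pair of libraries with the same genotype and replicate number. The labels do not say whether these are separate animals, so p-values here speak only of variation from library to library, some of which could be technical. No high-calcium culture was among the samples, so the effect of calcium itself was not measured.

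The estimated depth was 50.8 M fragments in the IL-17A library of knockout culture 1 and 15.9 to 29 M in the others. Bcl10 itself, the check of the genotype labels, stood at 0.969 and 16.4 FPKM (unstimulated, then IL-17A) in knockout culture 1 and at 17.0 and 16.6 in knockout culture 2. It stood at 67.0 and 72.3 in heterozygous culture 2 and at 59.5 and 60.6 in heterozygous culture 3, but at 18.0 and 16.3 in the culture labelled heterozygous 1, which is the level of 3 of the 4 knockout libraries and goes against its label. The unstimulated library of knockout culture 1 also stood apart in its 10 most abundant genes, which held 12.6% of its FPKM against 8.21% to 8.66% in the others. Throughout, "knockout" and "heterozygous" mean libraries so labelled, and results that rest on heterozygous culture 1 are given with and without it. The titles number the libraries 1 to 14 (both knockout cultures and heterozygous culture 1) and 33 to 38 (heterozygous cultures 2 and 3), and the first principal component, with 40.5% of the variance, separated these 2 ranges. All 7 basal keratinocyte markers were expressed, with summed levels of 8692 to 12518 FPKM, and 4 suprabasal markers (Krt1, Krt10, Ivl and Lor) summed to 8.64 to 21.5. Melanocyte markers (6 genes) summed to 169 to 197 FPKM in the libraries numbered 1 to 14 and to 316 to 407 in those numbered 33 to 38. Fibroblast markers (6 genes) summed to 28.5 and 28.7 FPKM in knockout culture 2 and to 0.159 to 0.454 in the other 8 libraries. Of the immune markers, Ptprc, Cd3e, Cd207 and Itgam were listed at 0 in every library, but Cd68 was not. Cd68 averaged 7.79 FPKM and was at least 5.10 in every library. It was higher in each library numbered 1 to 14 than in any numbered 33 to 38.

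The set ran from genes that were abundant in low calcium to genes that were near 0, with 14 averaging between 1 and 10 FPKM. Of the 46 genes, 13 were under 1 FPKM in all 10 libraries, and without heterozygous culture 1 this number was 14, with Lce1m added. That check was chosen after seeing the data. A further 3 genes besides Lce1m had a mean under 1 FPKM and reached 1 in at least 1 library, namely Krt1, Sprr4 and Lce1e. Near 0 is a limit on level and not on detection. Among the 13, Aloxe3 had an estimated 47.4 to 230 fragments per library, the 230 in the deepest library, whereas Krt77 had at most 4.02. Together the genes held 0.231% to 0.413% of the FPKM of a library. In bulk libraries a small number of differentiating cells and a low level in every cell cannot be told apart. After scaling each library to TPM, where every library has the same sum, 7 genes were under 1 in every library. FPKM summed to 358346 to 398882 per library, and scaling to TPM raised every value. A limit of 1 TPM is therefore a lower cut-off than 1 FPKM, and the 2 numbers are not like for like. A gene listed at 0 may also be a failed estimate, since Gapdh, a glycolysis gene that every cell uses, was listed at only 0.278 to 4.58 FPKM.

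**Figure D1:**
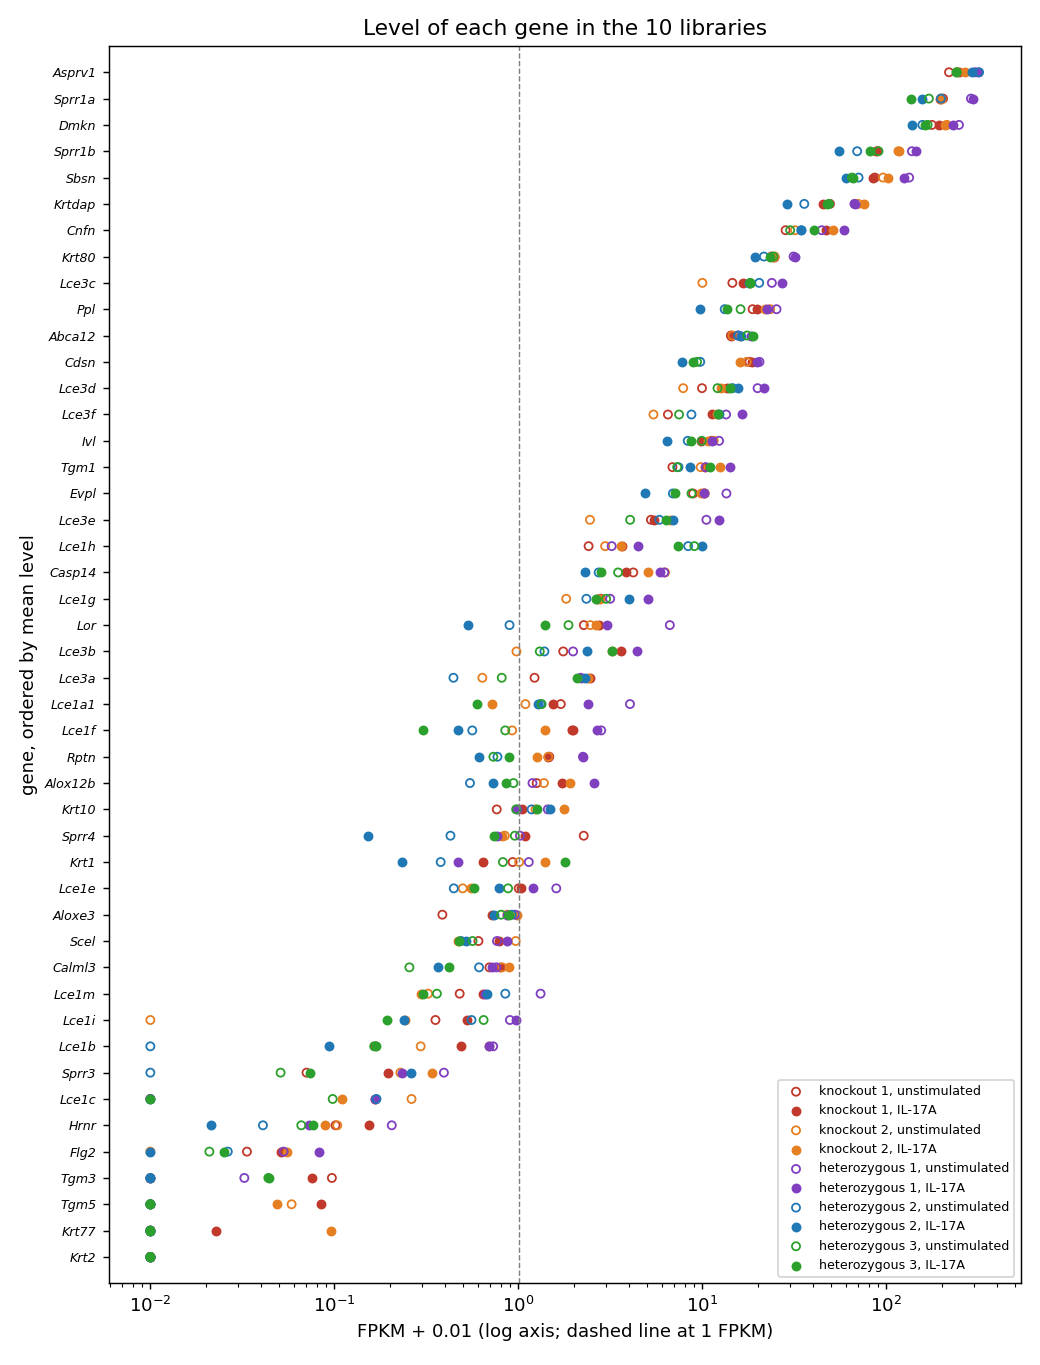
Level of each of the 46 genes in the 10 libraries, as FPKM + 0.01 on a log axis, with genes ordered by mean and a dashed line at 1 FPKM. Open circles are unstimulated and filled circles IL-17A libraries, coloured by culture. The genes run from Asprv1, at 219 to 319 FPKM, down to Krt2, listed at 0 in all 10 libraries.

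Among the keratins, the pair that marks the first suprabasal layer was barely present. Krt10 ranged from 0.753 to 1.76 FPKM and Krt1 from 0.224 to 1.78, beside 4429.9 to 6426 for Krt5, the basal keratin. Krt2, a keratin of the upper epidermis, was listed at 0 in every library, and Krt77 reached at most 0.0858 FPKM. Krt80, a keratin of later differentiation stages, was the exception, at 19.4 to 31.8 FPKM (mean 24.9). Krt80 was highest in heterozygous culture 1 under both conditions and lowest in heterozygous culture 2.

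The envelope scaffold was already expressed. Ivl, the involucrin gene, ranged from 6.41 to 12.3 FPKM, Evpl (envoplakin) from 4.88 to 13.5 and Ppl (periplakin) from 9.68 to 25.3, the last pair coding for plakins that tie the envelope to desmosomes and keratin filaments. Scel (sciellin, another envelope precursor) stayed under 1 FPKM, with a highest value of 0.957. Loricrin and the filaggrin relatives were low or near 0. Lor, which codes for loricrin, the main protein of the mature envelope, ranged from 0.522 to 6.64 FPKM, with its highest value in unstimulated heterozygous culture 1. Of the S100-fused filaggrin relatives, Rptn (repetin) stood at 0.599 to 2.24 FPKM, whereas Flg2 reached at most 0.0720 and Hrnr (hornerin) 0.195.

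The small proline-rich genes spanned the whole range. Sprr1a, whose protein bridges other envelope proteins, stood at 203 and 198 FPKM in the unstimulated knockout libraries, 196 and 198 in those with IL-17A, 288, 198 and 170.1 in the unstimulated heterozygous libraries and 294, 156 and 135 in those with IL-17A. Its 2 highest values were both in heterozygous culture 1 and its lowest in heterozygous culture 3 with IL-17A. Sprr1b ranged from 55.2 to 144 FPKM, with the same culture highest and heterozygous culture 2 lowest. Sprr3 was near 0 with at most 0.384 FPKM, and Sprr4 ranged from 0.143 to 2.25.

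The 16 LCE genes divided by family. Of the Lce1 genes, 9 were in the table, and 4 passed the filter of a mean of at least 1 FPKM, namely Lce1h (mean 5.50), Lce1g (3.01), Lce1a1 (1.59) and Lce1f (1.38). Lce1b, Lce1c and Lce1i were near 0, with highest values of 0.719, 0.253 and 0.955 FPKM. All 6 Lce3 genes passed the filter, from Lce3a (mean 1.66 FPKM) and Lce3b (2.42) through Lce3e (6.57), Lce3f (10.6) and Lce3d (14.2) to Lce3c (18.5). LCE transcripts share stretches of sequence, so how fragments were divided between them is uncertain. Identity to the copy with the longest shared run was 72.5% to 82.9% for the Lce3 genes. Among the Lce1 genes it ran from 51.9% for Lce1m to 89.9% for Lce1h. Another copy can be more alike: Lce1a1 had 75.7% identity with Lce1j, picked by that run, and 88.2% with Lce1a2. The longest run of identical bases was 280 between Lce3e and Lce3f, 208 between Lce3c and Lce3f, 104 between Lce3b and Lce3f, and 107 between Lce1h and Lce1i.

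The 6 Lce3 genes lie within 68.14 kb (GRCm38 chromosome 3, 92925287 to 92993426). The 150 bases before each RefSeq start site (GRCm38.p6) are shown because the IL-17A results turn on these neighbours, and the windows let their promoters be compared. Each is written 5′ to 3′ on the gene's own strand and ends at the base before the start. Capitals mark ATAAAA, and TTGNGAAA, a form of the C/EBP pattern whose letters were chosen after reading these windows.
Lce3a (chr3:92926231-92926380, minus strand): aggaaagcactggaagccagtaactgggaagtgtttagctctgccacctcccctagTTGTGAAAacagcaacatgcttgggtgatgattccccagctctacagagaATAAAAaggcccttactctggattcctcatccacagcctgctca
Lce3b (chr3:92932829-92932978, plus strand): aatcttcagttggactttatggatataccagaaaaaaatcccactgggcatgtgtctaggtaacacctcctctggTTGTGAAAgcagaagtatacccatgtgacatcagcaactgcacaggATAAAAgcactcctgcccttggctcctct
Lce3c (chr3:92944336-92944485, plus strand): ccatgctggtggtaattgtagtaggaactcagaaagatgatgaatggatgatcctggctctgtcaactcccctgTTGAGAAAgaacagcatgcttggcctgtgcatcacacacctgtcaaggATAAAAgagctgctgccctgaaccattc
Lce3d (chr3:92957240-92957389, plus strand): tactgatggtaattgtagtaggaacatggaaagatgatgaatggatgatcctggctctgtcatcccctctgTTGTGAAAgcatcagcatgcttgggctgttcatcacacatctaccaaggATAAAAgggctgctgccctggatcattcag
Lce3e (chr3:92966911-92967060, plus strand): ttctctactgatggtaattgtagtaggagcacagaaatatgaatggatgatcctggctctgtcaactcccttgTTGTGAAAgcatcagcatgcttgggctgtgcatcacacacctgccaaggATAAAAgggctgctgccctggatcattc
Lce3f (chr3:92992067-92992216, plus strand): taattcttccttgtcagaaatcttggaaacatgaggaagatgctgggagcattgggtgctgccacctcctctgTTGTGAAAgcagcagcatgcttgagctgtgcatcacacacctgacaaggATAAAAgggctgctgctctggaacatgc
ATAAAA was the longest word that all 6 windows shared on their own strand, and began 28 to 30 bases before the start in all but Lce3a, where it began 44 bases before it. TTGNGAAA began 75 to 79 bases before the start, and 94 before it in Lce3a. Lce3c has TTGAGAAA there and the other 5 have TTGTGAAA.

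Motifs were counted in 32851 RefSeq windows, each the 250 bases before a start site. Of the set, 41 genes had such a window, and each of these genes was counted once. ATAAAA stood on the gene's own strand in 10.2% of all windows and TTGNGAAA in 2.23%. Searched on both strands, the C/EBP pattern TTNNGNAA, which every TTGNGAAA also meets, was in all 6 Lce3 windows, in 22 of the 41 and in 36.8% of all windows. The AP-1 pattern TGANTCA was in none of the 6, in 11 of the 41 and in 6.75% of all windows. The NF-kB pattern (GGGA, any 4 bases, CC) was in none of the 6, in 5 of the 41 and in 17.6%. The TATA word TATAAA was in Lce3e, in 14 of the 41 and in 12.4%. The printed windows of Lce3c, Lce3d, Lce3e and Lce3f are alike well beyond the marked words. The 6 Lce3 windows are therefore not independent counts to set against the share of all windows. A match is a description of these letters, not of binding.

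Tgm1, the membrane-bound transglutaminase of keratinocytes, was the only transglutaminase of the set above 1 FPKM, at 6.86 to 14.1. Tgm3 and Tgm5, the later-acting enzymes, reached at most 0.0869 and 0.0746 FPKM. Asprv1, a retroviral-like aspartic protease of the upper epidermis, was the most abundant gene of the set, at 219 and 243 FPKM in the unstimulated knockout libraries, 247 and 268 in those with IL-17A, 304, 319 and 241 in the unstimulated heterozygous libraries and 316, 292 and 238 in those with IL-17A. Casp14, a protease of filaggrin breakdown, ranged from 2.28 to 6.26 FPKM. Abca12, which loads lipids into lamellar granules, had the narrowest relative range of the 15 genes averaging 10 FPKM or more, from 14.3 to 18.9. The lipoxygenase gene Alox12b stood at 0.536 to 2.56 FPKM and its partner Aloxe3 stayed under 1, with a highest value of 0.977.

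Secreted and adhesion genes were the other abundant group. Dmkn (dermokine), Sbsn (suprabasin) and Krtdap, neighbouring genes on chromosome 7 that code for secreted proteins, ranged from 137 to 248, 60.0 to 133 and 28.8 to 75.2 FPKM. Cnfn (cornifelin, an envelope protein) ranged from 28.3 to 59.1, and Cdsn, which codes for the corneodesmosome adhesion protein, from 7.73 to 20.4. Calml3, a calmodulin-like gene, reached at most 0.881 FPKM. For the low genes these levels rest on few fragments. The estimates per library were 4.19 to 67.7 for Lce3a, 11.7 to 103 for Lce3b and 33.3 to 185 for Lce1h, against 122 to 476 for Lce3c. The highest estimates of the 3 Lce3 genes were all in the deepest library, and elsewhere Lce3a had at most 29.9. A count of 3 fragments in a transcript of 1 kb would equal 0.0591 to 0.189 FPKM, depending on the library, and this covers counting error only.

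The IL-17A libraries allow the question whether the cytokine alters these genes within 5 h. Lce3b was the 1 gene of the 29 that passed the filter to change over the 5 cultures, and it rose. Over all 12054 genes tested, 18 rose and none fell, so percent called upward was 0.149. By limma, at an unadjusted p under 0.05 the numbers were 11 of the 29 and 727 of all genes. The test was limma on log2(FPKM + 1), with culture as a fixed effect and Benjamini-Hochberg adjustment over all genes tested. This averaged comparison and the genes of the set were chosen with earlier results of these data known, so neither was blind to them. Folds on this scale understate the change of genes near 1 FPKM.

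Lce3b (ENSMUSG00000042031; GRCm38 chromosome 3, 92932979 to 92934097, plus strand) stood at 1.74 FPKM unstimulated and 3.60 with IL-17A in knockout culture 1 and at 0.966 and 3.23 in knockout culture 2. Heterozygous cultures 1, 2 and 3 had Lce3b at 1.97, 1.38 and 1.30 FPKM unstimulated and at 4.41, 2.36 and 3.21 with IL-17A. Its IL-17A level was above its unstimulated level in each of the 5 cultures, and the lowest IL-17A library was above the highest unstimulated one. The log2 change was 0.82 (SE 0.09, 1.76-fold, adjusted p = 0.0396 by limma), with 0.75 and 1.10 in the knockout cultures and 0.86, 0.50 and 0.88 in the heterozygous ones. Without heterozygous culture 1 it was 0.81 (SE 0.11) with an adjusted p of 0.179 by limma, and percent called over all genes was 0.0664, so the call was lost. It was also lost in each fit that left out 1 library. In the libraries numbered 1 to 14 alone it was 0.90 (SE 0.10, adjusted p = 0.386), with 0.0332 percent called. Of the 18 settings that tested it, the median-of-ratios scaling was the 1 besides the one reported that kept the call, and the log2 change ran from 0.75 to 1.15 over them.

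The other Lce3 genes had averaged changes above 0 that did not pass the test. Lce3a stood at 1.21 FPKM unstimulated and 2.43 with IL-17A in knockout culture 1 and at 0.627 and 2.39 in knockout culture 2. In the heterozygous cultures, Lce3a stood at 2.17, 0.434 and 0.802 FPKM unstimulated and at 2.19, 2.30 and 2.08 with IL-17A. Its unstimulated values in knockout culture 2 and heterozygous cultures 2 and 3 were under 1 FPKM, and every IL-17A value was above 2. In heterozygous culture 1, the unstimulated value already matched the IL-17A values. The averaged log2 change of Lce3a was 0.74 (SE 0.17, adjusted p = 0.411 by limma), and without heterozygous culture 1 it was 0.92 (SE 0.11, adjusted p = 0.139).

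Lce3f stood at 6.49 FPKM unstimulated and 11.3 with IL-17A in knockout culture 1 and at 5.41 and 11.99 in knockout culture 2. Across heterozygous cultures 1, 2 and 3, Lce3f stood at 13.4, 8.71 and 7.46 FPKM unstimulated and at 16.4, 12.3 and 12.1 with IL-17A. Every culture had more Lce3f with IL-17A, although the unstimulated value of heterozygous culture 1 lay above 4 of the 5 IL-17A values. Its averaged log2 change was 0.62 (SE 0.10, adjusted p = 0.184 by limma). The averaged log2 change of Lce3e was 0.43 (SE 0.16, adjusted p = 0.781) and that of Lce3d 0.29 (SE 0.09, adjusted p = 0.659), both also above 0 in each of the 5 cultures. Lce3c, the most abundant of them, had an averaged change of 0.20 (SE 0.13), with values from -0.17 to 0.81 by culture, below 0 in heterozygous cultures 2 and 3. The median log2 change was 0.53 over the 6 Lce3 genes and -0.01 over all genes tested.

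**Figure D2:**
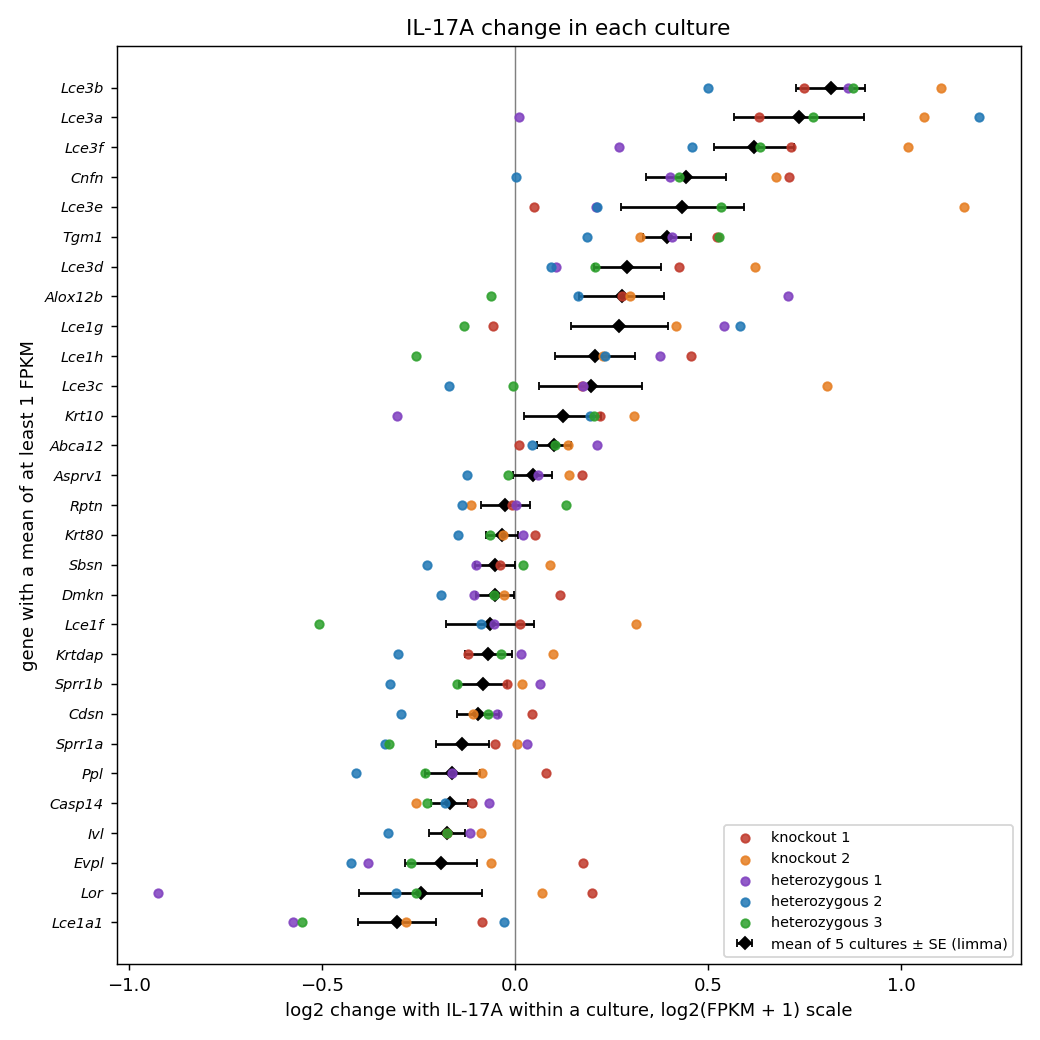
Log2 change with IL-17A within each culture for the 29 genes that passed the filter, on the log2(FPKM + 1) scale. Dots are the 5 cultures, and diamonds with bars are the mean and its standard error from limma. The Lce3b dots lie between 0.50 and 1.10, all above 0.

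Outside the cluster, Tgm1 and Cnfn were also higher with IL-17A in each culture. Tgm1 (ENSMUSG00000022218; GRCm38 chromosome 14, 55700009 to 55713926, minus strand) stood at 6.86 FPKM unstimulated and 10.3 with IL-17A in knockout culture 1 and at 9.78 and 12.5 in knockout culture 2. The heterozygous libraries held Tgm1 at 10.4, 7.40 and 7.28 FPKM unstimulated and at 14.1, 8.56 and 10.9 with IL-17A. Every culture had more Tgm1 with IL-17A, and the 2 conditions overlapped over cultures. The averaged log2 change of Tgm1 was 0.39 (SE 0.06, 1.31-fold, adjusted p = 0.153 by limma).

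Cnfn (ENSMUSG00000063651; GRCm38 chromosome 7, 25367620 to 25369724, minus strand) stood at 28.3 FPKM unstimulated and 46.9 with IL-17A in knockout culture 1 and at 31.8 and 51.4 in knockout culture 2. The heterozygous libraries held Cnfn at 44.5, 34.5 and 30.0 FPKM unstimulated and at 59.1, 34.5 and 40.6 with IL-17A. The change by culture ran from 0.00 in heterozygous culture 2, where both values were 34.5 FPKM, to 0.71 in knockout culture 1. Its averaged log2 change was 0.44 (SE 0.10, adjusted p = 0.432 by limma).

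In all, 8 of the 29 genes were higher with IL-17A in each of the 5 cultures (Lce3a, Lce3b, Lce3d, Lce3e, Lce3f, Tgm1, Cnfn and Abca12), where 3.65% of all genes tested were. Without heterozygous culture 1, 9 were higher in each of 4 cultures, with Krt10 added, where 7.32% of all genes were. Lower in each of the 5 cultures were 3 genes (Ivl, Lce1a1 and Casp14), where 4.29% of all genes were, and the same 3 without heterozygous culture 1, where 8.15% were. Lce1a1 had an averaged log2 change of -0.31 (SE 0.10, adjusted p = 0.714 by limma), Ivl -0.18 (SE 0.05, adjusted p = 0.602) and Casp14 -0.17 (SE 0.05, adjusted p = 0.629). The 3 most abundant genes had small averaged changes: the log2 change was 0.05 (SE 0.05) for Asprv1, -0.14 (SE 0.07) for Sprr1a and -0.05 (SE 0.05) for Dmkn. Over the 29 genes the median change was -0.03, with 14 above 0 and 15 below.

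The 3 genes that were lower in every culture differed in size. Ivl stood at 11.2 FPKM unstimulated and 9.79 with IL-17A in knockout culture 1 and at 11.5 and 10.8 in knockout culture 2. The heterozygous libraries held Ivl at 12.3, 8.31 and 9.90 FPKM unstimulated and at 11.3, 6.41 and 8.65 with IL-17A. Within each culture the IL-17A value was the lower one, and the 2 conditions overlapped over cultures. Casp14 stood at 4.20 FPKM unstimulated and 3.81 with IL-17A in knockout culture 1 and at 6.26 and 5.07 in knockout culture 2. Its heterozygous values were 6.20, 2.72 and 3.47 FPKM unstimulated and 5.86, 2.28 and 2.81 with IL-17A, again overlapping. Lce1a1 stood at 1.69 FPKM unstimulated and 1.53 with IL-17A in knockout culture 1 and at 1.08 and 0.710 in knockout culture 2. Its heterozygous values were 4.03, 1.31 and 1.33 FPKM unstimulated and 2.38, 1.26 and 0.586 with IL-17A. The log2 change of Lce1a1 was -0.58 and -0.55 in heterozygous cultures 1 and 3 and -0.03 in culture 2.

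Taken by role, no group but the Lce3 genes had a gene that passed the test. The averaged median log2 change was -0.18 for the 3 scaffold and plakin genes tested, all below 0, and -0.11 for Sprr1a and Sprr1b, both below 0. It was 0.07 for the 4 Lce1 genes and 0.07 for the 4 genes of enzymes and the lipid barrier. It was -0.05 for the 5 secreted and adhesion genes, of which Cnfn was the 1 above 0. Evpl (-0.19, SE 0.09) and Ppl (-0.16, SE 0.07) were lower in all 3 heterozygous cultures, and each was higher in knockout culture 1 and lower in knockout culture 2.

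Compared within each genotype, in the 1 limma fit with 4 group means that leaves the cultures' differences in the spread, no gene of the 29 passed the test. In the heterozygous libraries percent called was 0.0083 over all genes (1 of 12054), and by limma 3 of the 29 and 162 of all genes had an unadjusted p under 0.05. In the knockout libraries percent called was 0.0249 (3 of 12054; 0.0083 higher and 0.0166 lower), with 4 of the 29 and 176 of all genes at an unadjusted p under 0.05. With culture as a block, 0 genes were called in either genotype by limma, while 835 and 607 of all genes had an unadjusted p under 0.05. The Lce3 genes had a median log2 change of 0.39 in the heterozygous libraries, with Lce3c at -0.00, and of 0.73 in the knockout libraries, with all 6 above 0. The difference between the genotypes' responses was tested directly by limma, and percent called was 0 for all genes, with none of the 29 and 143 of all genes at an unadjusted p under 0.05. It was 0.49 (SE 0.30) for Lce3c, 0.41 (SE 0.31) for Lce3f and 0.18 (SE 0.32) for Lce3b, each with an error large enough that neither equal nor unequal responses are shown. With culture as a block, 5 of the 29 and 624 of all genes had an unadjusted p under 0.05, and 0 were called by limma. The difference was then 0.39 (SE 0.10) for Lce3d, 0.41 (SE 0.15) for Lce3f and 0.49 (SE 0.21) for Lce3c, each with an adjusted p of 0.779.

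Lor was higher with IL-17A in both knockout cultures and lower in all 3 heterozygous ones. It stood at 2.26 FPKM unstimulated and 2.74 with IL-17A in knockout culture 1 and at 2.45 and 2.62 in knockout culture 2. Heterozygous Lor values were 6.64, 0.885 and 1.86 FPKM unstimulated and 3.02, 0.522 and 1.39 with IL-17A. The difference in response was 0.63 on the log2 scale (SE 0.78, adjusted p = 1 by limma) with the cultures' differences left in the spread. With culture as a block its SE was 0.23 (adjusted p = 0.779), so it exceeded its error and missed the threshold over all genes. With no block it was 0.42 (SE 0.37, adjusted p = 1) without heterozygous culture 1.

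Set along chromosome 3, the genes of the epidermal differentiation complex had unlike averaged changes. Next to the Lce3 genes, the Lce1 genes had averaged changes from -0.31 to 0.27. Sprr1b and Sprr1a, at -0.08 and -0.14, lie beside the Sprr2 genes, another family of proline-rich envelope precursors, of which 5 of 12 rose with a family median of 0.59 (for example Sprr2e, 1.42, SE 0.09, adjusted p = 0.0064 by limma). The other 4 that rose were Sprr2d (1.24, SE 0.13), Sprr2f (1.07, SE 0.12), Sprr2g (0.93, SE 0.06) and Sprr2i (1.17, SE 0.08). Of 16 other genes of the complex that were tested, S100a8 (0.89, SE 0.05, adjusted p = 0.00444) and S100a9 (0.97, SE 0.10, adjusted p = 0.0314), which code for calprotectin, rose, and the median was 0.02. Over all 12054 genes tested, 0.149% were called upward. Leaving out a single library could remove every averaged call over all genes, these included. How far Sprr2 transcripts share sequence was not checked.

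**Figure D3:**
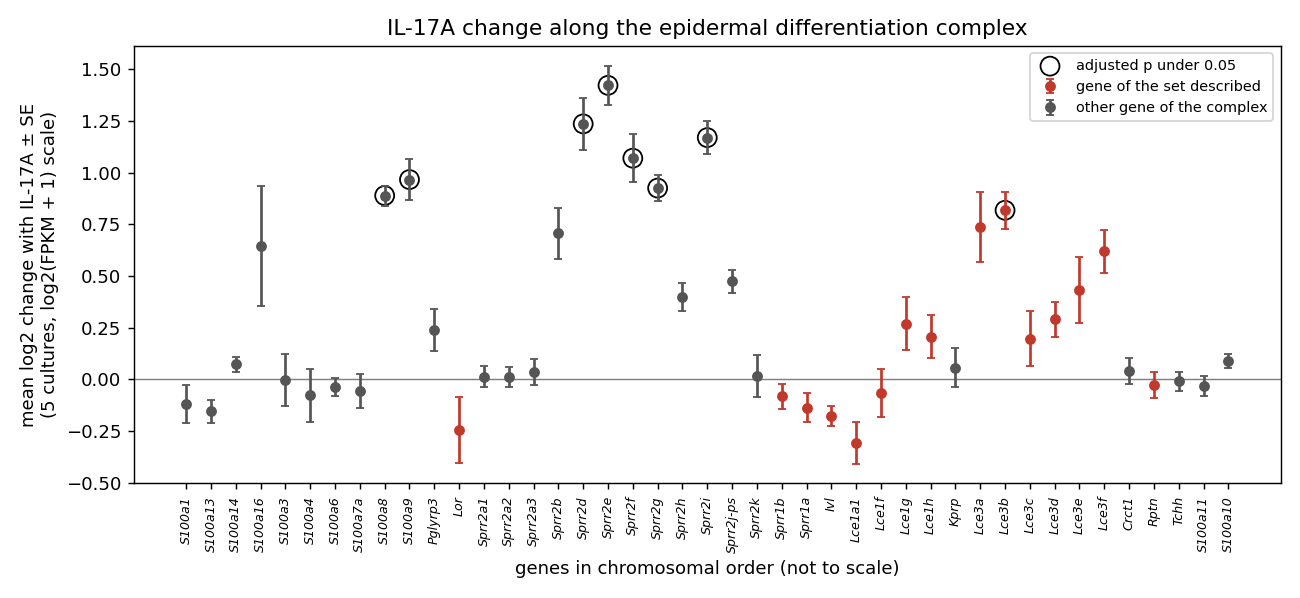
Averaged log2 change with IL-17A (points, with the standard error from limma as bars) for the tested genes of the epidermal differentiation complex in chromosomal order, not to scale. Red points are genes of the set and circled points have an adjusted p under 0.05. Lce3b, at 0.82, is the circled red point, and the Sprr2 genes and S100a8 and S100a9 hold the other circles.

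Lists of genes that work beside the set gave no call. Among barrier lipid synthesis genes none of 14 tested passed (median 0.02), and the largest value was that of Sdr9c7 (0.31, SE 0.12, adjusted p = 0.784 by limma), a dehydrogenase of ceramide processing. Among proteases and inhibitors of desquamation none of 14 passed (median 0.02), with Klk5, a kallikrein protease, at -0.27 (SE 0.10, adjusted p = 0.781). Suprabasal adhesion and junction genes gave none of 12 (median -0.02), with Gjb6, a connexin, at 0.42 (SE 0.07, adjusted p = 0.16). Regulators of differentiation gave none of 21 (median 0.05), with Cebpb at 0.27 (SE 0.14, adjusted p = 0.873).

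Between genotypes, no gene of the set passed the test in either condition. Unstimulated, percent called was 0 over the 12054 genes, and by limma 4 of the 29 and 562 of all genes had an unadjusted p under 0.05. With IL-17A, percent called was 0.0249 (3 genes, all lower in knockout), and none of the 29 against 981 of all genes had an unadjusted p under 0.05. The IL-17A and genotype comparisons share their unstimulated libraries, so their values are set side by side and not counted as separate evidence. Fibroblast markers, as given above, were high in knockout culture 2 alone, and their part in any genotype difference was not tested.

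The 6 Lce3 genes had unstimulated log2 differences below 0, knockout minus heterozygous, with a median of -0.64 where the median of all genes was -0.01, and with IL-17A the median was -0.22. With heterozygous culture 1 left out, the medians were -0.36 and -0.06, and unstimulated Lce3a was at 0.24 (SE 0.18) and Lce3b at -0.01 (SE 0.19). Unstimulated Lce3c was 12.3 ± 3.22 FPKM (SD, n = 2) in knockout and 20.8 ± 2.85 (SD, n = 3) in heterozygous libraries, and with IL-17A it was 17.4 ± 1.20 (SD, n = 2) and 21.0 ± 5.22 (SD, n = 3). The separate values were 14.5 and 9.98 against 23.8, 20.3 and 18.2 FPKM unstimulated, which do not overlap. With IL-17A they were 16.5 and 18.2 against 27.1, 17.9 and 18.1, which do. The unstimulated log2 difference of Lce3c was -0.73 (SE 0.21, adjusted p = 0.728 by limma). It was -0.63 (SE 0.16, adjusted p = 0.11) without heterozygous culture 1, and -0.93 (SE 0.23) within the libraries numbered 1 to 14. There the heterozygous arm is 1 library a condition, from culture 1, which is assumed to vary like the knockout pairs that alone give the spread. Lce3d (-0.72, SE 0.22), Lce3e (-0.66, SE 0.39) and Lce3f (-0.61, SE 0.22) also missed the threshold, with an adjusted p of 0.728 each by limma. Leaving out heterozygous culture 1 gave -0.54 (SE 0.14), -0.34 (SE 0.28) and -0.39 (SE 0.12), so the values of Lce3e and Lce3f shrank by over 1.5 times.

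Ranges that did not overlap between genotypes are a weak measure with 2 against 3 libraries. Unstimulated, 5 of the 29 genes lay wholly lower in knockout (Lce1h, Lce3c, Lce3d, Lce3f and Abca12), where 15.4% of all genes did, and Alox12b wholly higher, where 12.3% did. With IL-17A, 4 lay lower (Lce1h, Lce3d, Lce3f and Abca12), where 13.8% did, and Lce3a higher, where 14.8% did. Without heterozygous culture 1, unstimulated values of 5 genes lay lower, where 34.5% of all genes did, and 12 higher, where 29.9% did. With IL-17A, 4 then lay lower, where 33.7% did, and 17 higher, where 31.9% did.

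Lce1h had the largest difference between genotypes in the set, and its levels split by library number. Lce1h (ENSMUSG00000049593; GRCm38 chromosome 3, 92763215 to 92765065, minus strand) stood at 2.40 FPKM unstimulated and 3.66 with IL-17A in knockout culture 1 and at 2.95 and 3.62 in knockout culture 2. In the heterozygous cultures 1, 2 and 3, Lce1h stood at 3.20, 8.36 and 9.03 FPKM unstimulated and at 4.45, 9.98 and 7.39 with IL-17A. Heterozygous culture 1 lay just above both knockout cultures in each condition, and cultures 2 and 3 lay higher still, with no overlap. The log2 difference, knockout minus heterozygous, was -1.002 unstimulated (SE 0.39, adjusted p = 0.728 by limma) and -0.78 with IL-17A (SE 0.39, adjusted p = 0.507). Without heterozygous culture 1 it was -1.40 (SE 0.15, adjusted p = 0.0172) and -1.05 (SE 0.15, adjusted p = 0.0251). Within the libraries numbered 1 to 14, where 1 heterozygous library a condition leaves the spread to the knockout pairs, it was -0.20 (SE 0.14) and -0.23 (SE 0.14).

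Cdsn (ENSMUSG00000039518; GRCm38 chromosome 17, 35552128 to 35557180, plus strand) showed the opposite arrangement. It stood at 18.0 FPKM unstimulated and 18.6 with IL-17A in knockout culture 1 and at 17.4 and 16.1 in knockout culture 2. The heterozygous libraries held Cdsn at 20.4, 9.72 and 9.34 FPKM unstimulated and at 19.7, 7.73 and 8.85 with IL-17A. Heterozygous culture 1 again lay with or above the knockout cultures, and the other heterozygous cultures lay lower. The log2 difference of Cdsn was 0.49 unstimulated (SE 0.40, adjusted p = 0.728 by limma) and 0.59 with IL-17A (SE 0.40, adjusted p = 0.514). Without heterozygous culture 1 these were 0.83 (SE 0.11, adjusted p = 0.0261) and 0.98 (SE 0.11, adjusted p = 0.0119). Within the libraries numbered 1 to 14 the values were -0.20 (SE 0.12) and -0.18 (SE 0.12), the opposite sign, against 1 heterozygous library a condition.

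Leaving out heterozygous culture 1 therefore raised the number of genes of the set that differed between genotypes. Unstimulated there were 2: Cdsn was higher in knockout, where percent called upward over all genes was 0.382, and Lce1h was lower, where it was 0.664. With IL-17A there were 5, namely Cdsn, Ppl (0.81, SE 0.18, adjusted p = 0.0482 by limma), Sbsn (0.55, SE 0.12, adjusted p = 0.0478) and Alox12b (0.66, SE 0.15, adjusted p = 0.0475) higher, where percent called was 3.83, and Lce1h lower, where it was 2.87. In either direction percent called was 1.05 unstimulated and 6.7 with IL-17A. In that fit the knockout libraries have the numbers 1 to 10 and the heterozygous ones 33 to 38, so genotype, Bcl10 level and library number cannot be told apart. Within the libraries numbered 1 to 14, no gene of the 29 was called by limma (percent called 0.0664 in either condition), but with a heterozygous arm of 1 library this shows nothing of how heterozygous cultures vary. There 28 of the 29 were below 0 unstimulated (median -0.40, against -0.01 over all genes), and 27 with IL-17A (median -0.30, against 0.00). The heterozygous arm there is culture 1 alone, which held the highest level of 23 of the 29 genes in each condition. These directions therefore restate the level of that culture and cannot be read as a genotype difference.

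Split by library number alone, 10 of the 29 genes lay wholly higher in the 6 libraries numbered 1 to 14 than in the 4 numbered 33 to 38, where 17.4% of all genes did, and 1, Lce1h, lay wholly lower, where 18.4% did (35.9% in either direction). The 10 were Evpl, Ppl, Lor, Rptn, Lce1f, Casp14, Alox12b, Cdsn, Sbsn and Dmkn. Ppl ranged from 18.7 to 25.3 FPKM in the first range and from 9.68 to 16.1 in the second, Cdsn from 16.1 to 20.4 and 7.73 to 9.72, and Dmkn from 177 to 248 and 137 to 167. Basal keratinocyte markers moved the same way, with sums of 11150 to 12518 FPKM against 8692 to 10207, and melanocyte markers the other way, as given above. The part of either in these differences was not tested. Krt80, Abca12, Asprv1 and the Lce3 genes overlapped between the 2 ranges.

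**Figure D4:**
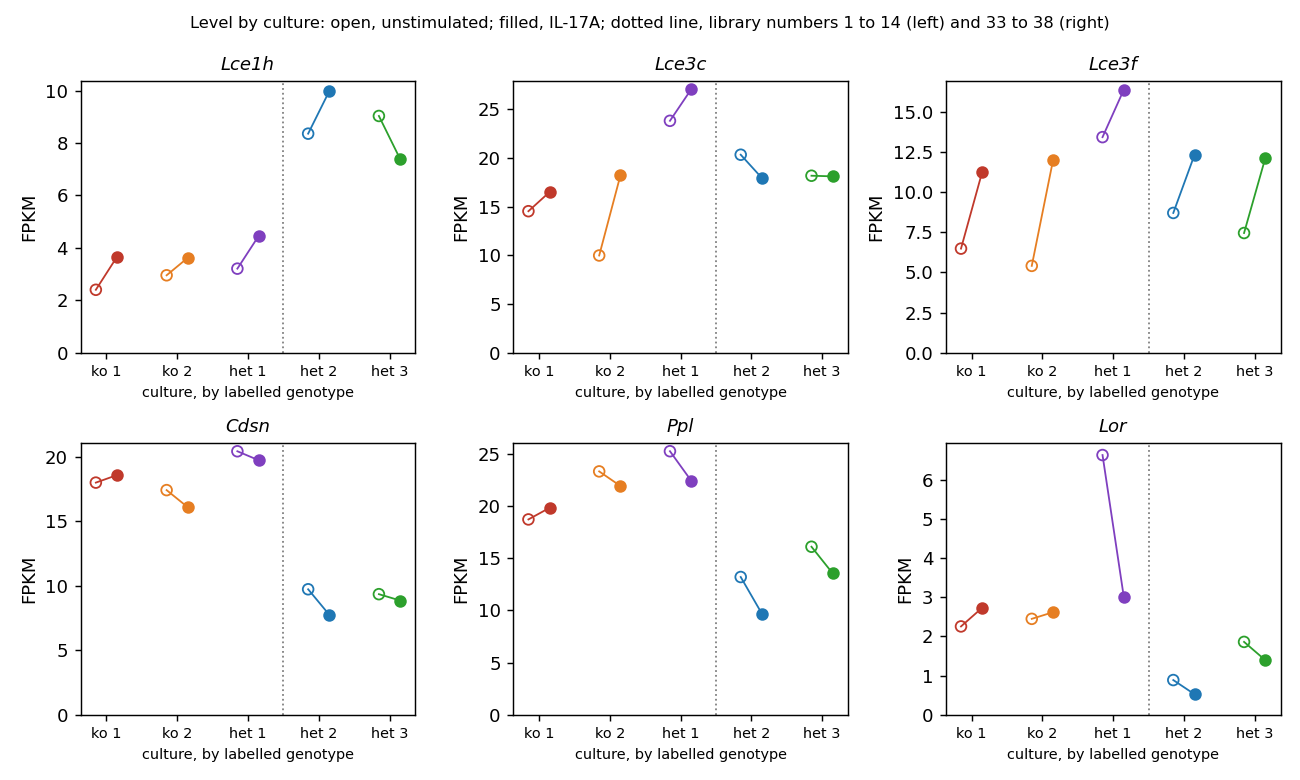
FPKM of 6 genes in each culture, with open circles unstimulated and filled circles IL-17A, joined within a culture. The dotted line divides library numbers 1 to 14 (left) from 33 to 38 (right). Lce1h lies higher and Cdsn, Ppl and Lor lie lower on the right, whereas Lce3c and Lce3f overlap.

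Heterozygous culture 1 held the highest levels of the set. Its unstimulated value was the highest of the 5 unstimulated cultures for 23 of the 29 genes, where this was so for 19.3% of all genes tested, and its IL-17A value was the highest for 23, where it was for 15.9%. Heterozygous culture 2 had the lowest unstimulated value for 12 (32.0% of all genes) and the lowest with IL-17A for 16 (34.1%). The direction of the IL-17A change over the set also differed by culture: 20 of the 29 genes were higher with IL-17A in each knockout culture, 18 in heterozygous culture 1, 12 in culture 2 and 11 in culture 3. The median log2 change by culture was 0.08, 0.14, 0.02, -0.13 and -0.05 in that order, where over all genes the share higher was 46.0% to 50.9%.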

How the data were processed

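Poly(A) RNA from 10 libraries was prepared with a NEBNext Ultra II kit from 100 ng of total RNA, per the labels' protocols. The authors deposited 1 table of FPKM values per Ensembl gene; HISAT2, SAMtools, StringTie and DESeq2 and the build mm10 are named per the submitters' processing notes, without versions, strand setting or how reads were shared between copies. Of 37991 identifiers 32919 matched a symbol (GENCODE vM21 positions, GRCm38). Count models do not apply to FPKM and were not used. Library depth was inferred from the spacing of the lowest values among genes with 1 exon (300 to 3000 bp), of which 48.48% to 54.09% came within 0.05 of whole fragments, against 10% for an even spread.

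Genes averaging 1 FPKM or more (12054) were tested on log2(FPKM + 1) with limma 3.58.1 (mean-variance trend, R 4.3.3) and Benjamini-Hochberg adjustment over all of them, two-sided, at 0.05. One fit with 4 group means gave the 5 comparisons, and the averaged IL-17A change had culture as a fixed effect. The replicate numbers in the titles were taken to pair libraries. Deviations from the group means correlated within these pairs (r = 0.227 in the knockout cultures, and 0.607, 0.488 and 0.137 in the heterozygous ones). With 2 libraries a group, both knockout cultures must give the same r. Heterozygous culture 1 also differs from the other heterozygous cultures in library number. The correlation therefore cannot show that a pair came from the same culture, and Bcl10 differed within knockout culture 1, as given above. The fit was tested on simulated data.

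The averaged IL-17A comparison, the members and the lists were chosen with earlier results of these data known. Genes named with full statistics were those called in any comparison, the 12 highest by mean, the 8 with the largest averaged IL-17A change, the 6 with the largest genotype difference in either condition, and those near 0. Counts near 0, in every culture and without overlap were repeated without heterozygous culture 1, a choice made after seeing the data. Alternatives were the pseudocount, the filter, median-of-ratios and TPM scaling, left-out libraries, library numbers 1 to 14 and the replicate block. Tables were handled with Python 3.11.15, numpy 2.4.6, pandas 2.3.3 and matplotlib 3.10.9. Promoter windows are from RefSeq (GRCm38.p6), read with Biopython 1.88.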

Additional observations from a re-analysis of the deposited data

How the results depend on the processing

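Counts of all genes called by limma moved with the setting, and the causes were not tested. For IL-17A in the heterozygous libraries, 1 became 2 with a pseudocount of 0.1 and with TPM scaling, 0 without heterozygous culture 1, 6 in the libraries numbered 1 to 14 and 0 with the replicate block (0 to 3 leaving out 1 library at a time). In the knockout libraries, 3 became 5 with no filter, 1 with TPM scaling and 0 with the replicate block (0 to 10). For knockout against heterozygous unstimulated, 0 became 2 with no filter, 126 without heterozygous culture 1, 8 in numbers 1 to 14 and stayed 0 with the replicate block (0 to 3). With IL-17A, 3 became 6 with no filter, 0 with TPM scaling, 808 without heterozygous culture 1, 8 in numbers 1 to 14 and stayed 3 with the replicate block (0 to 10). For the difference in response, 0 became 1 with no filter, 1 without heterozygous culture 1 and 6 in numbers 1 to 14 (0 to 6). For the averaged IL-17A change, 18 became 6 with no filter, 8 without heterozygous culture 1, 4 in numbers 1 to 14 and 7 with no replicate block (0 to 14).

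The 1 differentiation gene called in the averaged change became 0 with a pseudocount of 0.1, with no filter, with a mean of at least 5 FPKM (where Lce3b was not tested), with TPM scaling, without heterozygous culture 1, in numbers 1 to 14, with no replicate block and in each fit that left out 1 library (0 to 0). Between genotypes, 0 genes of the set became 2 unstimulated and 5 with IL-17A without heterozygous culture 1. The number near 0 was 13 at a limit of 1 FPKM and 7 at a limit of 1 TPM, which is a lower cut-off. The replicate block changed no other call among these genes. Low genes such as Lce3a, with an estimated 4.19 to 67.7 fragments per library, limit what this depth can show.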
